A study of Zea mays with 6 samples.

Results

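Classical plant height genes of maize were followed through mRNA abundance, polysome loading and m6A methylation in seedlings of the F1 hybrid B73×Mo17. The 9 genes were taken by identifier out of the 45578 entries in each expression file. They comprise *an1* (*anther ear1*), *d3* (*dwarf3*) and *d1* (*dwarf1*) of gibberellin synthesis, *d8* (*dwarf8*) and *d9* (*dwarf9*), which encode DELLA proteins, *na2* (*nana plant2*), *na1* (*nana plant1*) and *brd1* of brassinosteroid synthesis, and *br2* (*brachytic2*) of auxin transport. The 6 libraries came from untreated plants harvested 14 d after sowing, with 2 biological replicates each of polysome profiling, of m6A-seq (immunoprecipitation with an antibody against m6A), and of input RNA-seq of polyadenylated RNA. All plants were of the 1 hybrid genotype, the sources name aerial tissue, and reads of both parental alleles were mapped to the B73 genome. Polysome RNA, the RNA carried by several ribosomes, gave the translational level, and input RNA gave mRNA abundance, both in FPKM, which counts the sequenced fragments of a gene relative to the length of its transcript and to all fragments of the library. Translational efficiency is polysome FPKM divided by mRNA FPKM. Where it is given by replicate, polysome and mRNA libraries of the same number were paired. The labels only number the libraries, so this pairing is assumed, and another pairing would give other ratios.

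Gibberellin promotes stem elongation by triggering the destruction of DELLA proteins, nuclear repressors of growth. Its synthesis runs from a diterpene cyclised by the ent-copalyl diphosphate synthase that *an1* encodes, through the ent-kaurenoic acid oxidase of *d3*, to the gibberellin 3-oxidase of *d1*, which makes the bioactive hormone. Brassinosteroids are steroid hormones, built with the sterol reductase of *na2* early, the steroid reductase of *na1* later, and the oxidase of *brd1* at the end. The *br2* protein is an ABC transporter that moves auxin along the stem. Loss of any of the synthesis genes or of *br2* shortens maize plants, and dwarfing alleles of *d8* are dominant changes that make the DELLA protein resist gibberellin.

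The 9 genes covered a wide range of mRNA abundance, with a mean of 20.4 ± 1.73 FPKM (SD, n = 2) for *d9* at the top and 0.113 ± 0.0180 FPKM (SD, n = 2) for *d1* at the bottom. Of the 9, 7 were expressed, that is, their mRNA FPKM averaged 1 or more. In each of the 9 genes both polysome values lay below both mRNA values. This separation was found in 42% of the genes with a value above 0 in at least 1 library, and in 45.5% of the genes that could be tested. Mean polysome FPKM put the 9 genes in the same order as mean mRNA FPKM: *d9*, *d8*, *d3*, *br2*, *na2*, *na1*, *an1*, *brd1*, *d1*. Among neighbours in this order, the replicate ranges of *d8* and *d3* overlapped at both levels and those of *an1* and *brd1* in the polysome libraries, and the other neighbours did not overlap. Whole aerial tissue was sampled, in which fewer cells using a gene and less RNA per cell cannot be told apart.

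**Figure D1:**
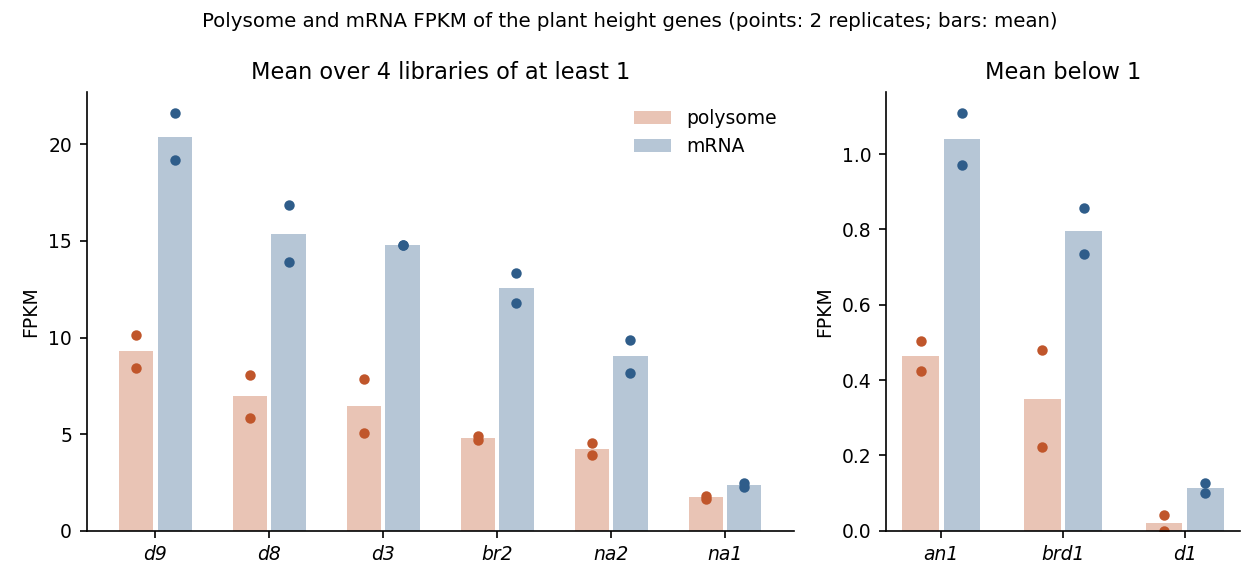
FPKM (linear axis from 0) of each plant height gene in the polysome and mRNA libraries of the hybrid, with a point for each of 2 replicates and a bar for their mean, and the genes of low level on a scale of their own. The polysome points lie below the mRNA points in all 9 genes, and the highest mRNA mean is that of *d9* at 20.4 FPKM.

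Among the gibberellin synthesis genes of the set, *d3* had far more mRNA than *an1*, which acts earlier, and *d1*, which acts later. *d3* (*Zm00001d045563*, minus strand of chromosome 9, 26822040 to 26825680, AGPv4) had 7.83 and 5.08 FPKM in the polysome libraries, against 14.8 and 14.8 FPKM in the mRNA libraries. The mRNA replicates were almost identical, whereas the polysome replicates of *d3* differed by 0.62 on the log2 scale, more than those of 90.1% of the genes tested. Its translational efficiency was 0.529 in replicate 1 and 0.343 in replicate 2. *an1* (*Zm00001d032961*, plus strand of chromosome 1, 244858795 to 244867417), which encodes the enzyme that commits carbon to the pathway, had 0.425 and 0.504 FPKM in the polysome libraries, against 1.11 and 0.971 FPKM in the mRNA libraries. The mean mRNA FPKM of *d3* was 14.2 times that of *an1*. *d1* (*Zm00001d039634*, plus strand of chromosome 3, 9745656 to 9748061), which acts last of these, was listed at 0 and 0.0419 FPKM in the polysome libraries, against 0.0998 and 0.125 FPKM in the mRNA libraries. Its ratio of means, 0.186 (0 and 0.335 in the replicates), rests on values near 0 and was left out of the comparisons of efficiency. These 3 genes of 1 pathway therefore stood at separate mRNA levels that did not overlap between replicates.

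The DELLA genes were the 2 most abundant of the set by mean, and their values ran side by side. *d9* (*Zm00001d013465*, minus strand of chromosome 5, 12228329 to 12230206) had 8.41 and 10.1 FPKM in the polysome libraries, against 19.2 and 21.6 FPKM in the mRNA libraries. *d8* (*Zm00001d033680*, plus strand of chromosome 1, 270918085 to 270919977) had 5.84 and 8.08 FPKM in the polysome libraries, against 13.9 and 16.8 FPKM in the mRNA libraries. Mean *d9* was 1.33 times mean *d8* at both levels, and the mRNA ranges of the 2 genes did not overlap. Their translational efficiencies were alike, at 0.455 for *d9* (0.438 and 0.469 in the replicates) and 0.453 for *d8* (0.421 and 0.480). The 2 genes are close paralogs, and the sources used here do not say how reads fitting both were shared, so the split between them is uncertain. In mRNA abundance *d8* and *d3* could not be put in order, since the *d3* values lay within the *d8* range.

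Among the brassinosteroid synthesis genes of the set, mRNA abundance was highest for *na2*, which acts early, and lowest for *brd1*, which acts at the end. *na2* (*Zm00001d014887*, plus strand of chromosome 5, 67026171 to 67030023) had 3.91 and 4.55 FPKM in the polysome libraries, against 8.18 and 9.87 FPKM in the mRNA libraries. *na1* (*Zm00001d042843*, minus strand of chromosome 3, 181821465 to 181822989) had 1.65 and 1.79 FPKM in the polysome libraries, against 2.27 and 2.46 FPKM in the mRNA libraries. The values of *na1* thus lay close together, and its translational efficiency of 0.727 was the highest of the set. It was 0.725 and 0.730 with libraries of the same number paired. *brd1* (*Zm00001d033180*, plus strand of chromosome 1, 253162491 to 253166753) had 0.479 and 0.223 FPKM in the polysome libraries, against 0.856 and 0.736 FPKM in the mRNA libraries. Its polysome replicates were further apart, on the log2 scale, than those of 95.2% of the genes tested, with efficiencies of 0.560 and 0.303. The genes tested averaged 1 FPKM or more and did not include *brd1*, so this is not a position among genes of its own level. Mean *na2* mRNA was 3.82 times that of *na1* and 11.3 times that of *brd1*. The order *na2*, *na1*, *brd1* held in every mRNA library and every polysome library.

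The auxin transporter gene *br2* (*Zm00001d031871*, minus strand of chromosome 1, 204748411 to 204755635) had 4.88 and 4.70 FPKM in the polysome libraries, against 11.8 and 13.3 FPKM in the mRNA libraries. The polysome and mRNA values were far apart, and the polysome replicates were closer to each other than those of most genes, with a difference of 0.05 on the log2 scale. Its translational efficiency of 0.381 (0.414 and 0.352 in the replicates) was the lowest of the 8 genes other than *d1*.

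Whether polysome FPKM departed from mRNA FPKM beyond the spread between replicates was tested with limma. The test used log2(FPKM + 0.1) and took in the 19518 genes whose FPKM averaged 1 or more over all 4 libraries. A gene was called at an adjusted *P* under 0.01 (Benjamini–Hochberg) and a fold change of at least 1.5. On this scale, 5 of the 6 plant height genes that entered the test were called lower in polysome RNA and 0 were called higher, against 22.2% of all genes tested called lower and 21.1% called higher. The log2 fold change was −1.37 for *br2* (standard error 0.15, adjusted *P*=0.00076), the largest of the 6 in size, and −1.13 for *d9* (standard error 0.16, adjusted *P*=0.0018). It was −1.07 for *na2* (adjusted *P*=0.0032), −1.14 for *d8* (adjusted *P*=0.0045) and −1.22 for *d3* (adjusted *P*=0.0048). The value of *na1*, −0.44, did not pass (adjusted *P*=0.10), and its 95% interval ran from −0.93 to 0.06. The median log2 fold change of the 6 genes was −1.14, beside −0.14 over all genes tested. *an1*, *brd1* and *d1* were under the filter. In the limma fit without it, *an1* had a log2 fold change of −1.02 (adjusted *P*=0.036) and *brd1* of −1.05 (adjusted *P*=0.090). That of *d1*, whose values were near 0, was −0.83 (adjusted *P*=0.096). None of these genes was called.

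The calls rested on 2 replicates, and only that of *br2* was kept in each of the 12 alternative fits. *d3* was lost without mRNA replicate 1 (adjusted *P*=0.019) and without mRNA replicate 2 (adjusted *P*=0.018). *d8* was lost without mRNA replicate 1 (adjusted *P*=0.011), mRNA replicate 2 (adjusted *P*=0.023) or polysome replicate 1 (adjusted *P*=0.016). *d9* was lost without mRNA replicate 2 (adjusted *P*=0.012), and *na2* without mRNA replicate 2 (adjusted *P*=0.022), polysome replicate 1 (adjusted *P*=0.017) or polysome replicate 2 (adjusted *P*=0.010). Without mRNA replicate 2, then, 1 of the 6 genes was called lower, beside 10.6% of all genes in that fit. In the fit with no filter on low values, 3 of the 9 genes were called lower, namely *d9*, *na2* and *br2*, beside 9.44% of the 32415 genes, and *d3* (adjusted *P*=0.016) and *d8* (adjusted *P*=0.015) were not.

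The size of the difference depended on how the libraries were scaled. Short non-coding entries (ENSRNA identifiers) made up 24.6 and 25.9% of the summed FPKM of the polysome libraries and 59.6 and 58.9% of that of the mRNA libraries. With these entries left out and the sums made equal, the median over all genes moved to −0.79. The share of genes called lower was then 45.1% and that called higher 9.33%, and all 6 plant height genes were called lower, *na1* included (log2 fold change −1.07, adjusted *P*=0.0045). After centring the libraries on their medians, the share called lower was 17.2% and that called higher 26.8%. The call of *d3* was then lost (log2 fold change −0.99, adjusted *P*=0.021) and *na1* stood at −0.21. Relative to the median of all genes, the log2 fold change as deposited was −1.23 for *br2* and −0.30 for *na1*. A change of scale moves a library nearly as a whole, so this difference is fixed by construction and says nothing of the scaling. The input was polyadenylated RNA, and no selection on the poly(A) tail is named for the polysome fraction, so RNA selection and translation cannot be told apart here.

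**Figure D2:**
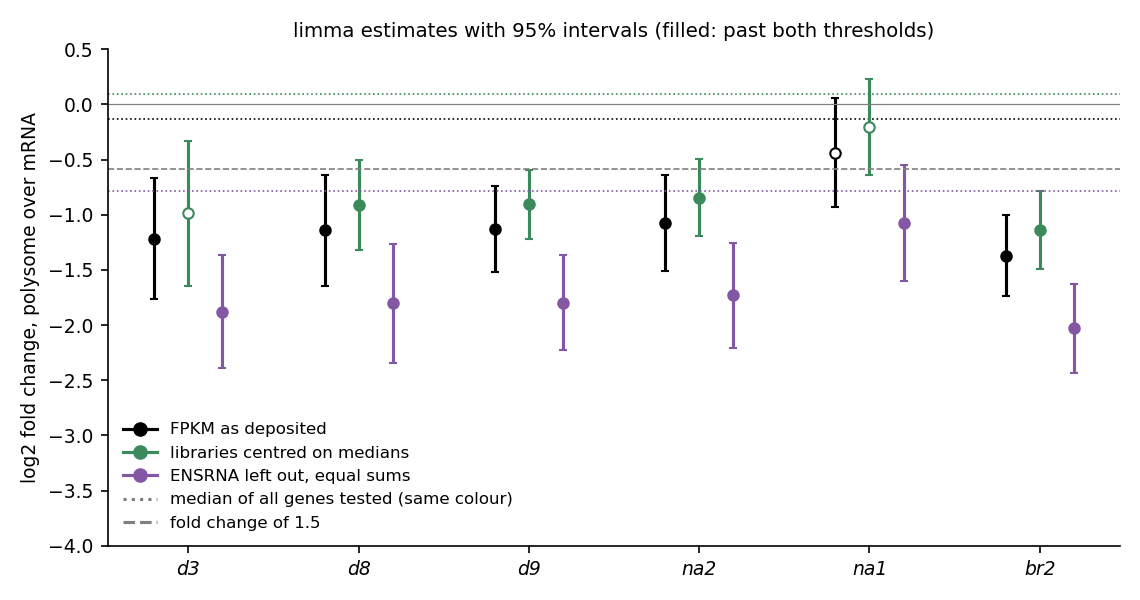
Log2 fold change of polysome over mRNA FPKM (y axis) for the 6 tested plant height genes under 3 scalings of the libraries, with 95% intervals from limma on log2(FPKM + 0.1); filled points passed both thresholds, dotted lines give the median of all genes under the scaling of the same colour, and the dashed line marks a fold change of 1.5. The 6 points of each colour lie below the dotted line of that colour, *na1* nearest to it.

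With *d1* left out, translational efficiency from the means of the replicates lay between 0.381 (*br2*) and 0.469 (*na2*) in 7 genes, and *na1* was higher, at 0.727. With libraries of the same number paired, single replicates of the same 7 genes ran from 0.303 to 0.560, both in *brd1*. The range of the means of the 7 genes was thus narrower than the spread between the replicates of *brd1*. The median over the 8 genes, which include *brd1* from below the expressed level, was 0.450. Over the 19871 expressed genes it was 0.845, with quartiles of 0.506 and 1.56. With ENSRNA entries left out and the sums made equal, the medians were 0.284 over the 8 genes and 0.543 over the 19411 expressed genes that remained. Of the 19871 expressed genes, on the deposited scale, 14.3% had a lower efficiency than *br2*, 19.4% a lower one than *an1*, 20.2% a lower one than *d9*, 21.5% a lower one than *na2* and 42.6% a lower one than *na1*. The median efficiency was 0.700 among expressed genes within a factor of 2 of the mRNA abundance of *an1* and 1.01 among those within a factor of 2 of *d9*. Each gene was therefore also set beside genes alike in both mRNA abundance and genomic span, each within a factor of 2. Expressed members were set beside expressed genes only, which cut the window of *an1* at 1 FPKM. The genes set beside *brd1* were not limited in this way, so *an1* and *brd1* are not directly comparable. Among such genes 10.2% were below *d9* (of 1959), 10.7% below *d8* (of 2333), 10.7% below *br2* (of 2914), 12.2% below *d3* (of 3371), 15.9% below *na2* (of 4403), 24.9% below *brd1* (of 2447), 25.1% below *an1* (of 1206) and 43.1% below *na1* (of 2521). For *an1* and *na1* this position was higher than that over all expressed genes, and for *d9*, *d8*, *br2*, *d3* and *na2* it was lower. These are positions in a distribution over genes, not tests.

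**Figure D3:**
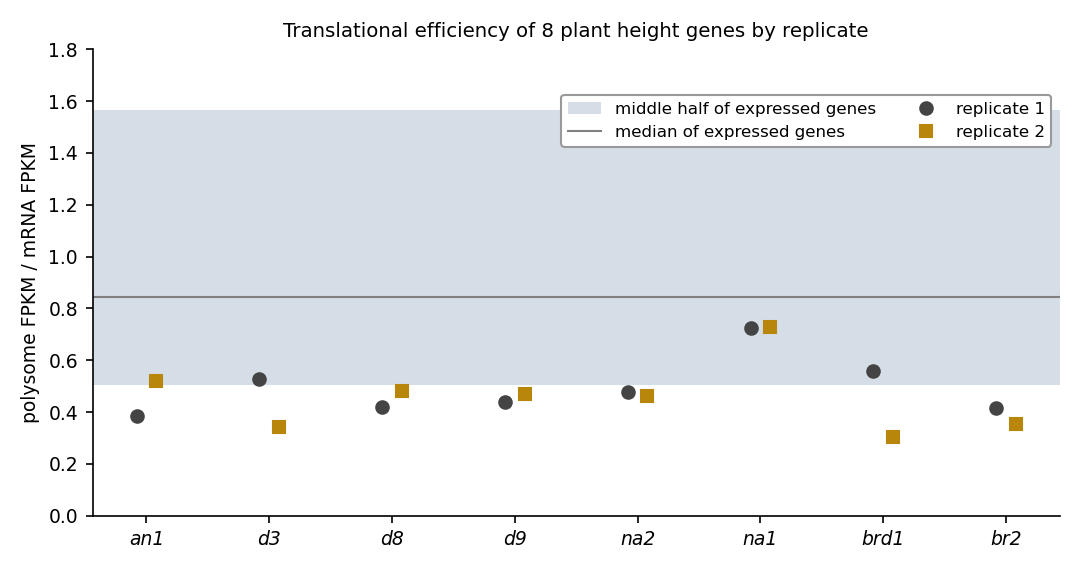
Translational efficiency (polysome FPKM over mRNA FPKM, linear axis from 0) of 8 plant height genes in replicate 1 and replicate 2, over a band from the lower to the upper quartile of the expressed genes (0.506 to 1.56) with their median (0.845) as a line. Each point divides libraries of the same number, a pairing that is assumed. All 16 points lie below the median, those of *na1* nearest to it. With this pairing the replicates of *d3*, *an1* and *brd1* are the furthest apart.

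m6A is a methyl mark on adenosines of mRNA, which in plants is found mostly near the 3′ end of transcripts. Peaks were called by MACS2 for each m6A-seq replicate against its input, at *q*<0.01, and a replicate 1 peak was taken as high confidence when it shared 1 bp or more with a peak of replicate 2. None of the 9 plant height genes (0 of 9) held a high-confidence peak in its span, whereas 51.2% of the expressed genes did. Of the 9, only 7 were themselves expressed genes. The share with a peak differed with mRNA level. With ENSRNA entries left out, it was 3.37% of the genes above 0 and below 0.2 FPKM, where *d1* lay. It was 14.5% from 0.2 to 1 FPKM (*brd1*), 36.8% from 1 to 2 FPKM (*an1*) and 53.2% from 2 to 5 FPKM (*na1*). The share was 61.0% from 5 to 10 FPKM (*na2*) and 60.9% from 10 to 20 FPKM (*d3*, *d8* and *br2*). Above that it was lower again, at 54.9% from 20 to 50 FPKM (*d9*) and 31.8% from 50 FPKM. Among genes within a factor of 2 of both mRNA abundance and span, 84.6% of 2914 had a peak for *br2*, 71.1% of 4403 for *na2*, 71.0% of 3371 for *d3* and 68.2% of 1206 for *an1*. For the shorter genes these shares were 47.9% for *d9*, 46.8% for *d8* and 16.5% for *na1*, and they were 33.6% for *brd1* and 4.93% for *d1*. Here too the window of *an1* was cut at 1 FPKM, where the share with a peak is higher than below it. Those of *brd1* and *d1* were not cut, so these shares are not directly comparable with that of *an1*. The absence of a call is not a measure of unmethylated RNA, since the files hold no signal outside called peaks.

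**Figure D4:**
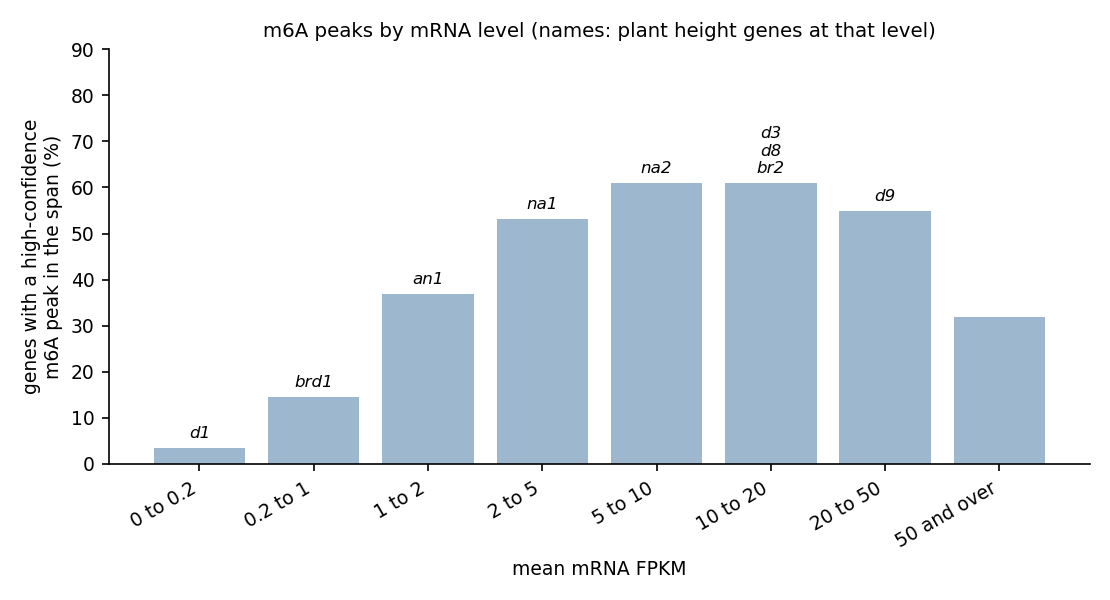
Percentage of genes with a high-confidence m6A peak in their span (y axis) by mean mRNA FPKM (x axis). ENSRNA entries and genes at 0 FPKM were left out. The plant height genes are written above the bar of their mRNA level. The bars are highest at 5 to 10 FPKM (61.0%, *na2*) and 10 to 20 FPKM (60.9%, *d3*, *d8* and *br2*) and lower on both sides, and none of the 9 named genes held such a peak.

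Within 2000 bp of the 9 genes, peaks were listed at 3. *br2* held the one peak inside a span, and in replicate 2 alone. It covered 205 bp (chromosome 1, 204748511 to 204748715) with its summit 288 bp inside the 3′ end, a fold enrichment of immunoprecipitated over input signal of 2.68 and a −log10 *q* of 3.88. Of all replicate 2 peaks, 3.41% had a lower fold enrichment, and with that replicate alone 58.7% of the expressed genes held a peak. *d8* had a peak in both replicates beyond its annotated 3′ end, where no other gene is listed. Its summit lay 338 bp past that end in replicate 1 (270920289 to 270920338) and 354 bp past it in replicate 2 (270920275 to 270920368). The fold enrichment was 2.58 in replicate 1 and 5.57 in replicate 2, or 4.07 ± 2.12 (SD, n = 2), so the replicates differed widely. The −log10 *q* of this peak was 2.79 in replicate 1 and 18.0 in replicate 2. A lower fold enrichment was found in 3.15% of all replicate 1 peaks and in 36.6% of all replicate 2 peaks. A high-confidence peak within the 500 bp past the end and none in the span was found in 2.79% of the expressed genes other than ENSRNA entries. With spans extended by 500 bp, *d8* was thus the 1 gene of the 9 (7 of them expressed) with a high-confidence peak. Of the expressed genes, 54% had a high-confidence peak in the extended span and 51.2% in the span itself. The peak near *na1* had a fold enrichment of 1.82 and 1.70 and a −log10 *q* of 2.25 and 2.13 in the replicates. Its summit lay 978 to 979 bp past the 3′ end of *na1*, inside the neighbouring gene *Zm00001d042842* on the opposite strand. That neighbour had 21.6 and 23.6 FPKM in the polysome libraries, against 61.2 and 70.4 FPKM in the mRNA libraries. No other entry overlapped the span of any of the 9 genes.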

How the data were processed

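The authors trimmed reads with Trimmomatic 0.35, mapped them to B73 RefGen_v4 (AGPv4.38) with HISAT2 2.1.0 (tools and versions per the labels), and estimated FPKM per gene with StringTie; the FPKM were used as deposited. For m6A-seq, the authors called MACS2 peaks per replicate, and the fold enrichment (a ratio to input), −log10 *P*, −log10 *q* and score are deposited as MACS2 gave them. The deposited score is 10 times the −log10 *q* and was not used further. Peak starts were taken as counted from 0 and are given counted from 1. FPKM hold no counts, so the depth is unknown and precision is the spread between 2 replicates.

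For the comparison of polysome with mRNA libraries, 1 linear model per gene on log2(FPKM + 0.1) was fitted over all genes (limma 3.58.1, R 4.3.3), with empirical Bayes moderation and trend, two-sided *P* values and Benjamini–Hochberg adjustment. The step was tested on simulated data, in which large falls were recovered less often than rises of the same size, so falls can be missed. A requirement on recovery was not met and was dropped. The simulated spreads were drawn from the trend that limma fitted to these data, so that trend itself was not tested. The tool named in the paper for translational efficiency, Xtail, needs counts. Tables and plots used Python 3.11.15, pandas 2.3.3, numpy 2.4.6 and matplotlib 3.10.9. The 9 genes, all of which are named, and the rules were chosen with earlier results of these data known. Lists of other hormone genes and of tissue markers were to come from a RefSeq table (Zm-B73-REFERENCE-NAM-5.0), which held 0 of the 9 identifiers, so they could not be formed and the labelled tissue was not checked against markers. That table lists 7 of the 9 gene names, each on the chromosome given here. Alternatives covered the pseudocount, filter, scaling, trend, replicate block, each replicate and the definition of peaks.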

Additional observations from a re-analysis of the deposited data

How the results depend on the processing

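The direction of polysome against mRNA FPKM held for the 6 tested genes in all 12 alternative fits. The number called lower, 5, was 3 with no filter on low values and ranged from 1 to 4 when 1 library was left out. Over all genes, 8464 were called (4124 higher, 4340 lower). With 1 library left out the calls ranged from 5178 to 6088, the lower ones from 2033 to 3221 and the higher ones from 2867 to 3145. With ENSRNA entries left out, 1817 were higher and 8786 lower. In single fits the log2 fold change ranged from −2.03 to −1.14 for *br2*, from −1.88 to −0.91 for *d3* and from −1.07 to −0.21 for *na1*. The lone library of an arm was assumed to vary like the others.

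The median translational efficiency of the 8 genes, 0.450, was 0.458 without replicate 2 and 0.465 without replicate 1, 0.466 after adding 0.1 to both means, and 0.284 with ENSRNA entries left out. The number of genes with an m6A peak in the span, 0, was 1 without replicate 1 (*br2*), 0 without replicate 2, and 1 with spans extended by 500 bp (*d8*). Same-numbered polysome and mRNA libraries did not deviate together (correlation 0.016 across genes), and with the replicate block 7886 genes and 5 of the 6 were called. The spread of efficiency between replicates depends on the assumed pairing of libraries, so it is not a measure of precision. The lists of other hormone genes were not run. The depth is unknown, so no counting error can be given for *d1*, *an1* and *brd1*, whose FPKM were low.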
